A study of Mus musculus with 4 samples.

Results

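Adipocyte genes with complement factor D are 10 genes that fat cells use to secrete hormones, coat the lipid droplet, release fatty acids or make heat: Cfd, Adipoq, Retn, Lep, Plin1, Cidec, Fabp4, Lipe, Car3 and Ucp1. They are 10 of the 54532 genes counted in kidneys of pristane-injected mice. They were selected on measured values, because Cfd and other fat genes had more counts in the knockout kidneys of these same libraries, so every genotype difference given for them is a description and supports nothing further. Cfd had 78.5 ± 7.38 CPM in Zbp1-KO against 17.1 ± 3.85 CPM in WT, Lipe had nearly equal levels in the genotypes, and Lep had no count at all. CPM is the count relative to the size of its library after TMM (trimmed mean of M values) scaling, and errors are the SD over n = 2 libraries per genotype.

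The study compared kidneys of wild-type (WT) mice with kidneys of mice that lacked Zbp1 (Zbp1-/-, ZBP1-KO in the labels and Zbp1-KO here), 2 libraries from each. The protein recognises nucleic acids in the Z conformation, and the knockout was made in C57BL/6J mice by CRISPR-Cas9 deletion of several of its exons, in every cell of the animal. All mice, WT included, were 8 weeks old when 500 µL of the hydrocarbon oil pristane, which provokes lupus-like disease, was put into the abdominal cavity, and their kidneys were taken 8 months after that. Female mice were named for this experiment in the study, libraries without pristane were not analysed here, and how much perirenal fat was removed at dissection is not given in the sources used here. Nothing states that each library came from its own animal, so the spread between libraries may be technical.

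Total counts were 9878776 to 12921925 per library, and mitochondrially encoded genes took 49.5% to 61.5% of them, which left 4003417 to 5782924 for the rest of the genome. The targeted gene, Zbp1, had 18 and 0 counts in the knockout libraries, below its 94 and 125 in WT. Even so, with all libraries it was not called by the edgeR quasi-likelihood test used below, nor by DESeq2 or limma-voom. A gene that is not called is therefore not shown to be unchanged. All 10 kidney genes on the list used to check the tissue had counts, led by Kap, an androgen-regulated protein of the proximal tubule, at 5565 to 9402 CPM. A gene with 0 counts in a library could have had up to 3 counts, which is 0.221 to 0.323 CPM over the libraries, and all such limits and intervals cover counting error only.

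White adipocytes store triglyceride in a large droplet whose surface is coated by perilipin, and hormone signals decide whether the lipases at that surface release fatty acids. They secrete hormones, among them adiponectin, leptin and, in mice, resistin, and they are the main source of complement factor D (adipsin), the serine protease that cleaves factor B and so drives the alternative pathway of complement. Brown adipocytes burn fatty acids for heat through Ucp1, and in mice both kinds of fat lie around the kidney and its vessels.

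Adipocyte genes share control by the nuclear receptor PPARG, which binds with RXR, and by C/EBP factors, so their promoters are shown for the motifs of these factors. Promoter windows from RefSeq (GRCm38.p6, from 250 bases before to 50 bases after the start of transcription) were found for 8 of the 10 genes, all but Car3 and Fabp4, and gave 10 windows, with 2 each for Cidec and Lipe. Capitals mark a match on either strand to AGGTCA, the unit that nuclear receptors bind, to DR1, which is AGGNCA repeated in the same direction with 1 base between the copies and can overlap AGGTCA, to TTGCNNAA, a core form of the C/EBP site, or to TATAAA, the TATA box. The window of Cfd, the gene called between genotypes, is chr10:79890603-79890902 on the plus strand. That of Plin1, the droplet coat gene with the most matches, is chr7:79732727-79733026 on the minus strand. That of Lep, the hormone gene without a count, is chr6:29059971-29060270 on the plus strand and holds a TTGCNNAA match that begins 55 bases before the start.
Cfd: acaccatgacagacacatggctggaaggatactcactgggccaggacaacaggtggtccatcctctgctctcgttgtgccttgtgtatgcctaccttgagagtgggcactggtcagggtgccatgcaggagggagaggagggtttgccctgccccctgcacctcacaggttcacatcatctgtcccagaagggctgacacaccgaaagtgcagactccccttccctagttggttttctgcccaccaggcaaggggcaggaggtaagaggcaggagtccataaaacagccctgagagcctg
Plin1: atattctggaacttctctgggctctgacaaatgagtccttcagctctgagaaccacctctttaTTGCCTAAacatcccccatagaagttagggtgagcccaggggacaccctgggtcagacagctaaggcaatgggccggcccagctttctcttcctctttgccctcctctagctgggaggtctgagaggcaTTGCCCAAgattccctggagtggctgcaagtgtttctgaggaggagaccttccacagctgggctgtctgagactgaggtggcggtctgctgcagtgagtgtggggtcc
Lep: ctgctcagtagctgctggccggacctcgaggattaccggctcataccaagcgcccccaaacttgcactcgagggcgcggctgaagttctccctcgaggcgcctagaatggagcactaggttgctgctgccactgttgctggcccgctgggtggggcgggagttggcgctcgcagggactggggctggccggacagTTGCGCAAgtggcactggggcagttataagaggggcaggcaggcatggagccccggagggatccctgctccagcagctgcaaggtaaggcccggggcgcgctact
The Cfd window held none of the motifs, and the Plin1 window held TTGCNNAA at 187 and at 58 bases before the start. Over the 10 windows, TTGCNNAA was found in 3 (Lep, Plin1 and 1 of the Cidec windows), against 10.8% of all 32851 windows in the RefSeq table. AGGTCA was found in 1 window, that of Ucp1, against 16.3% of all windows. Neither DR1, found in 0.381% of all windows, nor TATAAA, found in 13.6%, was in any of the 10. A match is a stretch of letters and no evidence of binding.

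Of the 10 genes, 9 had a count in at least 1 library and 8 passed the filter on low counts, Lep and Ucp1 being the exceptions. A gene could pass that filter through the knockout libraries alone, so the 8 are not a neutral sample of the list. The edgeR quasi-likelihood test (Benjamini-Hochberg adjusted p under 0.05) called 1 of the 8, Cfd, where 0.0134% of the 14908 genes tested were called. Without WT 1 this call was lost and 0 of the 10 genes were called, while the exact and likelihood ratio tests of edgeR, DESeq2 and limma-voom each called 2, Car3 and Cfd. At an unadjusted p under 0.05, 7 of the 8 were higher in Zbp1-KO, as were 1.91% of all genes tested, and none was lower, as were 1.97%. Both Zbp1-KO values lay above both WT values for 7 of the 8, and for Ucp1 among the untested genes, where 16.0% of all genes tested lay above in this way and 16.3% lay below. The median log2 fold change (Zbp1-KO over WT) of the 8 was 2.17, beside −0.0061 over all genes tested. Since the rule used this contrast, nothing is read from these counts.

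Among the secreted factors, Cfd had the highest count. It lies on chromosome 10 (79890853 to 79892655, plus strand, GENCODE M21, GRCm38) and had 179 and 232 counts in WT against 1135 and 680 in Zbp1-KO, which were 14.4, 19.8, 83.7 and 73.3 CPM. Both Zbp1-KO libraries were high and close to each other, both WT libraries were low, and the groups did not overlap. The log2 fold change was 2.20 ± 0.23 (SE), and the difference of 61.4 ± 5.89 CPM (SE) was 39.2% of the summed difference over the 10 genes.

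Adipoq, which encodes adiponectin, an insulin-sensitizing hormone made almost exclusively by adipocytes (chromosome 16, 23146536 to 23158028, plus strand), had 14 and 39 counts in WT against 144 and 56 in Zbp1-KO. The corresponding levels were 1.13, 3.34, 10.6 and 6.03 CPM. WT 1 was the lowest library and Zbp1-KO 1 the highest, and the groups did not overlap, but the libraries within a genotype lay further apart than for Cfd, with WT 2 at 2.96 times WT 1. The log2 fold change was 1.91 ± 0.61 (SE), and it ran from 1.31 without WT 1 to 2.87 without WT 2.

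Retn, which encodes resistin, a hormone made by mouse adipocytes (chromosome 8, 3655770 to 3660110, plus strand), had 3 and 51 counts in WT against 147 and 122 in Zbp1-KO. These were 0.241, 4.36, 10.8 and 13.1 CPM. The knockout libraries were alike, whereas WT 2 had 18.1 times the level of WT 1, the widest gap within a genotype among the genes with at least 1 count in each library of it. The log2 fold change was 2.38 ± 0.79 (SE), and it ran from 1.45 without WT 1 to 5.57 without WT 2.

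Lep, which encodes leptin, the satiety hormone of white adipocytes (chromosome 6, 29060220 to 29073877, plus strand), had 0 counts in each of the 4 libraries. With 3 counts as the upper limit, its level could have been up to 0.241 and 0.257 CPM in WT 1 and WT 2. In Zbp1-KO 1 and Zbp1-KO 2 this limit was 0.221 and 0.323 CPM. Leptin transcripts were thus absent from the counts of the same libraries in which adiponectin had up to 144.

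**Figure D1:**
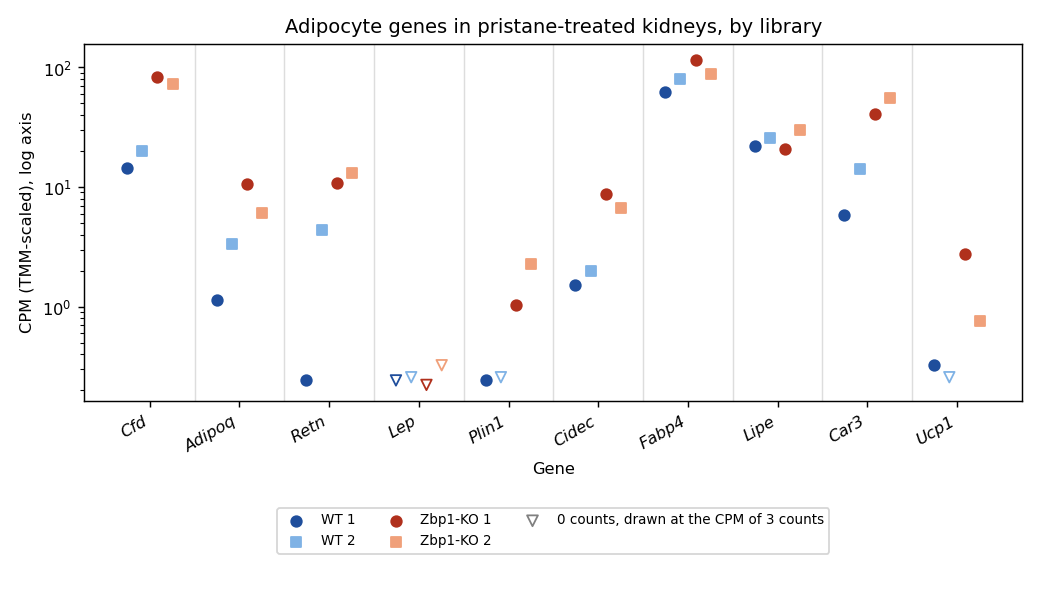
Level of each of the 10 adipocyte genes in the 4 kidney libraries, in CPM on a log axis. Filled points are libraries (circles for replicate 1, squares for replicate 2, blue for WT, red and orange for Zbp1-KO), and open triangles stand for 0 counts, drawn at the CPM of 3 counts. Cfd sits between 73.3 and 83.7 CPM in Zbp1-KO against 14.4 and 19.8 CPM in WT, and the points of Lipe overlap.

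The droplet coat genes were low in WT. Plin1, which encodes perilipin 1, the coat protein that gates lipolysis in adipocytes (chromosome 7, 79720218 to 79732903, minus strand), had 3 and 0 counts in WT against 14 and 21 in Zbp1-KO. In CPM these were 0.241, 0, 1.03 and 2.26, all near the limit of detection in WT. With the counts of a genotype summed, 35 against 3, the scaled ratio was 12.3 with an exact 95% counting interval of 3.88 to 62.6, and Zbp1-KO 2 was the higher knockout library.

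Cidec, which encodes the protein that fuses droplets into larger ones (chromosome 6, 113424634 to 113435760, minus strand), had 19 and 23 counts in WT against 118 and 62 in Zbp1-KO. Its levels were 1.53, 1.97, 8.70 and 6.68 CPM, so that both WT libraries were low and alike and both Zbp1-KO libraries lay well above them. The log2 fold change was 2.13 ± 0.55 (SE). Cidec and Cfd had similar fold changes, although Cidec was at 1.75 ± 0.310 CPM in WT and Cfd at 17.1 ± 3.85.

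The genes of lipid handling behaved otherwise. Fabp4, which encodes the fatty acid carrier of adipocytes and is also made by endothelium and macrophages (chromosome 3, 10204088 to 10208576, minus strand), had 781 and 941 counts in WT against 1559 and 824 in Zbp1-KO. These were 62.8, 80.5, 115 and 88.8 CPM. The groups did not overlap, but WT 2 and Zbp1-KO 2 lay close together, and the log2 fold change of 0.51 ± 0.21 (SE) was below those of Cfd, Adipoq, Retn and Cidec. At its high level, Fabp4 made up 19.3% of the summed CPM difference over the 10 genes.

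Lipe encodes hormone-sensitive lipase, which cleaves diglyceride in adipocytes and is also made by steroid-making cells. The gene (chromosome 7, 25379527 to 25398710, minus strand) had 274 and 299 counts in WT against 284 and 278 in Zbp1-KO. In CPM, 22.0, 25.6, 20.9 and 29.9, the lowest and the highest library were both knockouts, and the groups overlapped. The log2 fold change was 0.09 ± 0.25 (SE) and turned to −0.02 without WT 1 and to −0.19 without Zbp1-KO 2. An antisense gene overlaps Lipe and had 0, 4, 0 and 24 counts in the same order of libraries. The study describes its libraries as strand-specific, but whether the counting used strand is not given in the sources used here.

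Car3, which encodes carbonic anhydrase 3, an abundant cytosolic protein of adipocytes and of slow skeletal muscle (chromosome 3, 14863512 to 14872523, plus strand), had 73 and 164 counts in WT against 558 and 516 in Zbp1-KO. Its levels were 5.87, 14.0, 41.1 and 55.6 CPM. Zbp1-KO 2 was the highest library, as it was for Retn, Plin1 and Lipe. For Cfd, Adipoq, Cidec, Fabp4 and Ucp1 the highest library was Zbp1-KO 1. For Car3, WT 1 was again the lowest. The log2 fold change was 2.28 ± 0.35 (SE), and the difference of 38.4 ± 8.29 CPM (SE) was 24.6% of the summed difference. Car3 was not called by the edgeR quasi-likelihood test but was called by those 4 alternative tests, and its log2 fold change ran from 1.78 without WT 1 to 3.03 without WT 2. Of the 7 skeletal muscle genes examined beside it, Acta1, Ckm and Myh4 had 0 counts in each library. The summed level of the 7 was 15.4 and 21.8 CPM in WT against 13.1 and 12.7 CPM in Zbp1-KO. Pvalb, which the distal tubule also makes, had the highest mean of the 7. The list held no gene particular to slow muscle, so the part of slow muscle in the level of Car3 was not tested.

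Ucp1, which encodes the uncoupling protein of brown and beige adipocytes (chromosome 8, 83290352 to 83298452, plus strand), had 4 and 0 counts in WT against 37 and 7 in Zbp1-KO. These were 0.322, 0, 2.73 and 0.754 CPM, with most of the counts in the library Zbp1-KO 1. The scaled ratio of the summed counts, 44 against 4, was 11.6 with an exact 95% counting interval of 4.23 to 44.5, and Ucp1 did not pass the filter on low counts. Zbp1-KO 2 was at 0.276 times the level of Zbp1-KO 1, so the knockout libraries differed more for Ucp1 than for any other of the 9 genes with counts.

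Other brown fat genes were therefore set beside Ucp1. Cidea, which encodes a droplet protein of brown adipocytes, had 41 counts (3.02 CPM) in Zbp1-KO 1 and 0 in the other libraries, and Elovl3, a fatty acid elongase induced by cold in brown fat, had 15 counts (1.11 CPM) there and 0 elsewhere. Dio2, the deiodinase that activates thyroid hormone, had 12 and 16 counts in WT, 130 in Zbp1-KO 1 and 2 in Zbp1-KO 2. All 4 genes, Ucp1 included, were thus highest in the same library, and Cidea, Elovl3 and Dio2 are named for values that had been seen. The rest of the list was divided. Cox8b, Prdm16, Cpt1b and Kcnk3 were also highest in Zbp1-KO 1. Slc36a2, Zic1 and Ppargc1a were highest in Zbp1-KO 2, and Cox7a1 and Fabp3 in WT 1. Slc36a2 had 8 and 3 counts in WT against 4 and 25 in Zbp1-KO.

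Of the 13 brown fat genes on the list, 7 passed the filter, and the edgeR quasi-likelihood test called 0 of them, with 0 at an unadjusted p under 0.05 in either direction. No other tool called any of them with the 4 libraries, but Dio2, at 9.59 CPM in Zbp1-KO 1 against 0.965 and 1.37 CPM in WT, was called by edgeR without Zbp1-KO 2. The median log2 fold change of the 7 was 0.05. Fabp3 (48.6, 35.2, 29.7 and 36.2 CPM in WT 1, WT 2, Zbp1-KO 1 and Zbp1-KO 2), Ppargc1a (31.4, 33.3, 32.6 and 34.4 CPM) and Prdm16 (20.0, 15.2, 20.6 and 16.5 CPM) had the highest levels of the list. They are also expressed by cells of the kidney and did not separate the genotypes. Otop1 had 0 counts in every library.

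**Figure D2:**
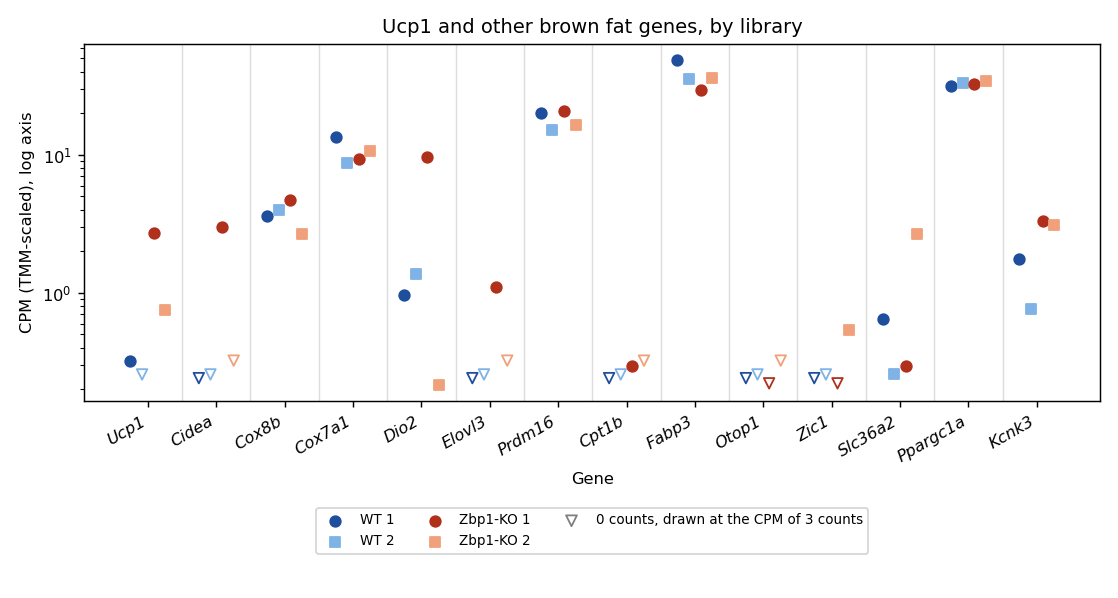
Level of Ucp1 and of the 13 other brown fat genes in each library, in CPM on a log axis, with symbols for libraries and open triangles for 0 counts drawn at the CPM of 3 counts. Ucp1, Cidea, Elovl3 and Dio2 are highest in Zbp1-KO 1, whereas Slc36a2 and Zic1 are highest in Zbp1-KO 2 and Cox7a1 in WT 1. Fabp3, Ppargc1a and Prdm16 lie at similar levels in the 4 libraries.

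Levels were then compared between genes per kilobase of merged exons (CPM/kb), since longer transcripts gather more counts. In WT, Cfd (18.6 ± 4.18 CPM/kb) and Fabp4 (16.0 ± 2.78) were followed by Lipe (4.04 ± 0.425), Car3 (3.47 ± 2.01), Adipoq (1.62 ± 1.13), Retn (1.46 ± 1.85), Cidec (0.942 ± 0.167), Ucp1 (0.0983 ± 0.139) and Plin1 (0.0259 ± 0.0367). The ranges of mean ± SD of neighbours in this order overlapped except between Fabp4 and Lipe and between Cidec and Ucp1. In Zbp1-KO the order was Cfd (85.1 ± 8.01 CPM/kb), Fabp4 (22.7 ± 4.13), Car3 (16.9 ± 3.56), Retn (7.59 ± 1.03), Adipoq (6.03 ± 2.35), Lipe (4.32 ± 1.08), Cidec (4.14 ± 0.770), Ucp1 (1.06 ± 0.853) and Plin1 (0.354 ± 0.187). Here the ranges of Cfd and Fabp4, of Car3 and Retn and of Cidec and Ucp1 did not overlap. Cfd ranked highest and Fabp4 next in each of the 4 libraries, and Lipe went from rank 3 in WT to rank 6 in Zbp1-KO while its own level hardly moved.

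The make-up of the summed counts differed in the same way. Fabp4 took 57.9% (95% Wilson interval 55.2 to 60.5) and 53.8% (51.5 to 56.1) of the counts of the 10 genes in WT, and 39.0% (37.5 to 40.5) and 32.1% (30.3 to 33.9) in Zbp1-KO. Cfd took 13.3% in each WT library (11.6 to 15.2 and 11.8 to 14.9), and 28.4% (27.0 to 29.8) and 26.5% (24.8 to 28.2) in Zbp1-KO. The share of Lipe was 20.3% and 17.1% in WT and 7.11% and 10.8% in Zbp1-KO.

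Proportions between Cfd and Adipoq, secreted by the same cells, also varied among libraries of a genotype. Cfd had 12.8 counts per Adipoq count in WT 1 (exact 95% interval 7.42 to 23.9) and 5.95 in WT 2 (4.22 to 8.58). In the knockouts the ratio was 7.88 in Zbp1-KO 1 (6.62 to 9.44) and 12.1 in Zbp1-KO 2 (9.24 to 16.2). The genotypes overlapped in this ratio, and so did the intervals of the knockout libraries.

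**Figure D3:**
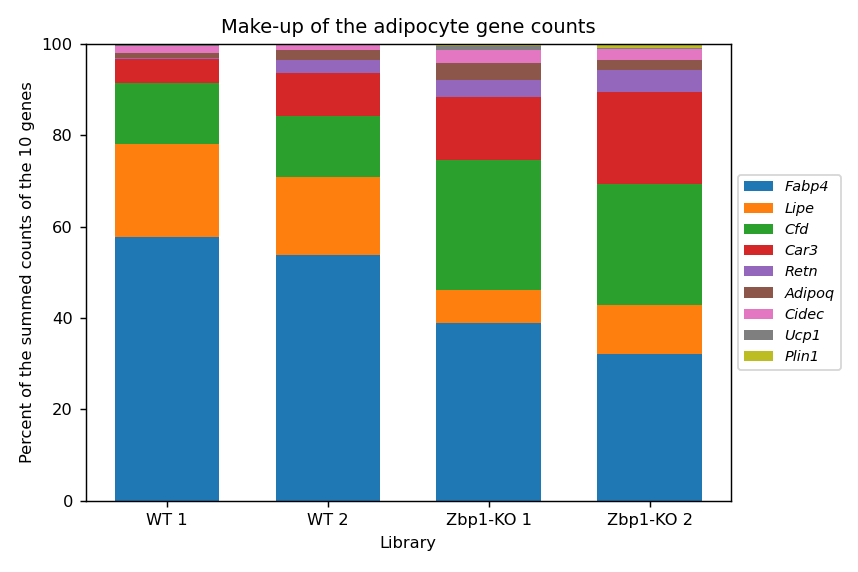
Percent of the summed counts of the 10 genes that each gene took, 1 bar per library. Fabp4 and Lipe together fill most of the WT bars, and Cfd takes 28.4% and 26.5% of the Zbp1-KO bars against 13.3% in each WT bar. Lep had no count and has no segment.

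The 10 genes together made up 0.0252% and 0.0351% of the counts outside mitochondrially encoded genes in WT and 0.0691% and 0.0641% in Zbp1-KO. Their summed level was 109 and 150 CPM in WT against 295 and 276 CPM in Zbp1-KO, a ratio of means of 2.21. Without Fabp4 and Lipe, which were set aside after their values had been seen, the sums of the remaining 8 genes were 23.7 and 43.5 CPM in WT against 159 and 158 CPM in Zbp1-KO, a ratio of 4.71. In bulk tissue, fewer cells of a type and less RNA per cell cannot be told apart, and the same holds here for more fat cells and more transcript per fat cell.

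Another 16 genes expressed by adipocytes, several of them also by other tissues, were then examined. Of these, 9 passed the filter, and the edgeR quasi-likelihood test called 0 of them, as did every other tool tried. At an unadjusted p under 0.05, 1 was higher, Thrsp, a regulator of fatty acid synthesis that liver and fat share, and 0 were lower. Thrsp measured 9.01, 8.64, 14.3 and 15.5 CPM in WT 1, WT 2, Zbp1-KO 1 and Zbp1-KO 2, without overlap, and its log2 fold change was 0.76 ± 0.31 (SE; edgeR adjusted p = 0.999). Both Zbp1-KO values lay above both WT values for 2 of the 9 and below them for 0. Over all genes tested, 16.0% lay above and 16.3% below in this way. At an unadjusted p under 0.05, 1.91% of all genes tested were higher and 1.97% lower. The same shares stand beside the lists that follow. The median log2 fold change of the 9 was 0.23.

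Genes of this list differed among themselves, and 6 of the 9 tested had a log2 fold change above 0. Trarg1, which takes part in the traffic of the insulin-regulated glucose transporter, had 34 and 5 counts in WT against 0 and 4 in Zbp1-KO. Adig, which encodes adipogenin, a small protein of adipocytes, had 18 and 12 counts in WT against 13 and 28 in Zbp1-KO. Lgals12, an adipocyte galectin on the droplet, had 13 and 7 counts in WT against 12 and 9 in Zbp1-KO. For Adig (log2 fold change 0.67 ± 1.06, SE) and Lgals12 (0.17 ± 1.26, SE) the errors were too wide to resolve a change of the size seen for Cfd. Plin4, a droplet coat protein, had 70 and 17 counts in WT against 65 and 72 in Zbp1-KO, Nrg4, a secreted growth factor, had 6 and 18 against 28 and 12, and Mrap, an accessory protein of melanocortin receptors, had 7 and 10 against 9 and 29, so that each had the higher mean in Zbp1-KO while its groups overlapped.

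Slc2a4, the insulin-regulated glucose transporter itself, measured 16.9 and 16.5 CPM in WT against 17.7 and 21.4 CPM in Zbp1-KO, and Aoc3, an amine oxidase of fat and of vessels, measured 5.47 and 6.16 CPM in WT against 3.17 and 7.43 CPM in Zbp1-KO. Acvr1c and Arxes1 had 0 counts in each library. The summed level of the 16 genes was 46.3 and 39.1 CPM in WT against 45.4 and 65.4 CPM in Zbp1-KO, so the groups overlapped. Slc2a4, Thrsp and Aoc3, which other tissues also make, had the highest means of the 16 and weigh most in this sum. Trarg1, Adig, Lgals12, Plin4, Nrg4 and Mrap were named after their values had been seen.

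**Figure D4:**
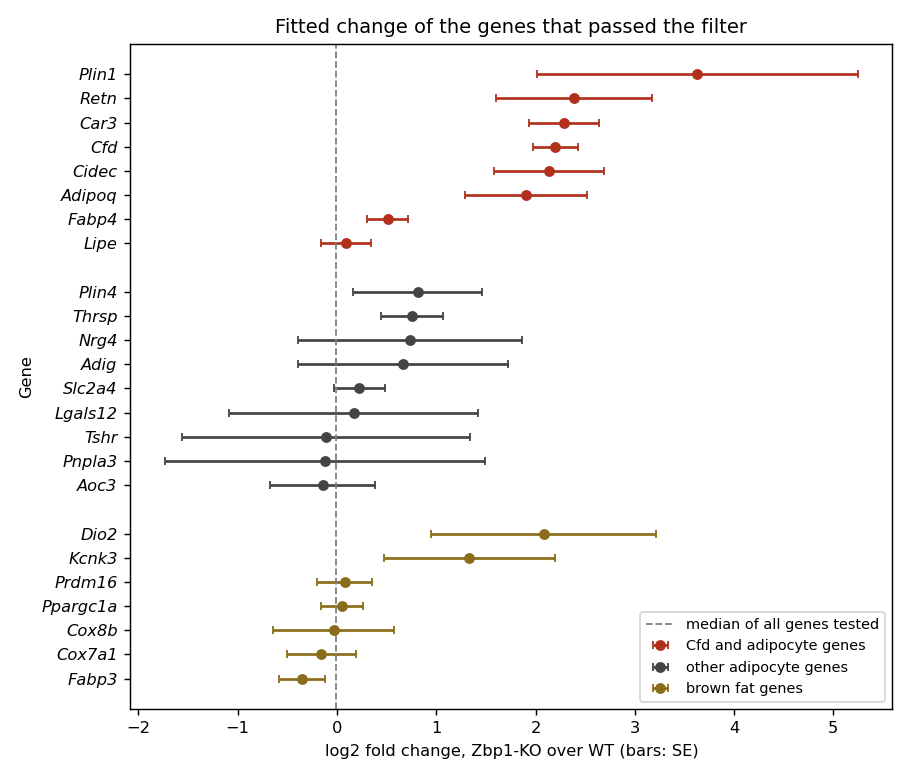
Fitted log2 fold change (Zbp1-KO over WT) with its SE for the genes that passed the filter on low counts, grouped as Cfd and adipocyte genes, other adipocyte genes and brown fat genes. The dashed line is the median of all genes tested, −0.0061. The values of the selected genes run from 0.09 (Lipe) to 3.63 (Plin1), and 1 of the other adipocyte genes, Thrsp, had an unadjusted p under 0.05.

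Pathways around these genes were described in the same way. Of 9 transcription factors of fat cell formation, 8 were tested and 0 were called by any tool. An unadjusted p under 0.05 was reached by 0 higher and 2 lower genes, Cebpb with a log2 fold change of −0.80 ± 0.34 (SE) and Cebpd with −0.88 ± 0.36 (SE; edgeR adjusted p = 0.999 for both), and the median over the 8 was −0.24. Cebpd, a C/EBP factor of early adipocyte formation that many cells induce under stress, had 498 and 231 counts in WT against 160 and 195 in Zbp1-KO, and in CPM the lower WT library (19.8) and the higher knockout library overlapped. Klf15 (33.9, 27.7, 28.1 and 30.7 CPM), a factor induced by fasting and glucocorticoid, and Rxra (32.2, 26.7, 27.4 and 24.2 CPM), a partner of PPARG, had the highest levels of the list beside Cebpd. Pparg itself had 40 and 42 counts in WT against 44 and 17 in Zbp1-KO, and it and Cebpb were named outside the rule on level.

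For triglyceride storage, breakdown and uptake, 18 of 18 genes were tested, 0 were called by any tool and 0 had an unadjusted p under 0.05 in either direction, with a median log2 fold change of 0.01. Lpl, the lipase that frees fatty acids from lipoproteins, measured 525 and 477 CPM in WT against 773 and 482 CPM in Zbp1-KO, high in Zbp1-KO 1 alone. Acsl1 (180, 113, 151 and 158 CPM), which activates fatty acids, and Slc27a1 (91.4, 74.1, 75.9 and 100.3 CPM), a fatty acid transporter, overlapped between genotypes.

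Of the 12 genes of fatty acid synthesis, all were tested and 0 were called by any tool, while an unadjusted p under 0.05 was reached by 1 higher and 0 lower genes. That gene was Scd1, the stearoyl-CoA desaturase, with 191 and 269 CPM in WT against 390 and 320 CPM in Zbp1-KO and a log2 fold change of 0.63 ± 0.21 (SE; edgeR adjusted p = 0.999). Its groups did not overlap. Both Zbp1-KO values lay above both WT values for 4 of the 12, Scd1, Fasn, Srebf1 and Me1, and below them for 2. Over all genes tested, 16.0% lay above and 16.3% below in this way. Fasn, Srebf1 and Me1 were named after their values had been seen. Pck1 (242, 235, 231 and 275 CPM), the enzyme that commits carbon to gluconeogenesis and, in fat, to glycerol, overlapped between genotypes, whereas Elovl6 (108, 110, 106 and 87.9 CPM), a fatty acid elongase, was lower in both knockouts, with a difference of means below the SD of the knockouts. The median log2 fold change over the 12 was 0.12.

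Cfd acts in the alternative pathway of complement, and 10 of 12 other genes of that pathway were tested. The edgeR quasi-likelihood test called 0 of them, while 1 lower and 0 higher genes had an unadjusted p under 0.05, and the median log2 fold change was −0.0034, also with Cfb at the bound given next. The lower gene was Cfb, which encodes factor B, the substrate of factor D, with 21 and 20 counts in WT and 0 in both Zbp1-KO libraries, at least 6.24-fold lower when the knockout libraries are set at 3 counts each. Cfb was called by the likelihood ratio test of edgeR and by no other tool, and the genotype difference had an adjusted p of 0.999 in the quasi-likelihood test.

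C3, which encodes the central component, measured 104 and 134 CPM in WT against 44.2 and 197 CPM in Zbp1-KO, so the knockouts lay on either side of WT, and C3 was called lower without Zbp1-KO 2. Cr1l, a regulator of complement activation on cells, measured 10.7 and 20.3 CPM in WT against 12.7 and 19.4 CPM in Zbp1-KO. Factor D transcripts were thus higher in both knockout libraries, while those of C3 and Cr1l overlapped between genotypes.

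Cells that could carry some of the same transcripts were examined through their own markers. The 6 endothelial genes, of cells that also make Fabp4, summed to 207 and 241 CPM in WT against 235 and 205 CPM in Zbp1-KO, with 0 of 6 called by any tool, 0 at an unadjusted p under 0.05 and a median log2 fold change of −0.016. Emcn, Pecam1 and Flt1, surface proteins of vessels, led this list. The 7 macrophage genes summed to 285 and 185 CPM in WT against 246 and 256 CPM in Zbp1-KO, with 0 of 7 called, 0 at an unadjusted p under 0.05 and a median of 0.05, led by Csf1r, Lyz2 and Cd68. Neither sum separated the genotypes as Cfd did. The sum of the 7 lymphoid genes did, at 6.03 and 5.82 CPM in WT against 10.2 and 9.05 CPM in Zbp1-KO. Each of the 4 tested had a log2 fold change above 0. Among those not tested, the B cell gene Cd79a went the other way. Cd79a and Ms4a1, also a B cell gene, had 0 counts in both knockouts against WT means of 1.02 and 0.281 CPM. With 3 counts as the upper limit the knockout mean could have been up to 0.272 CPM, so the direction of Ms4a1 is not resolved. The part of lymphoid cells in the levels of the 10 genes was not tested.

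The stroma of fat and the lining of the abdomen were also followed. The 8 genes of fat stroma summed to 525 and 564 CPM in WT against 526 and 520 CPM in Zbp1-KO, with 0 of 8 called, 0 at an unadjusted p under 0.05 and a median of −0.066, led by Gsn, Ly6a and Dcn. The 6 mesothelial genes summed to 59.4 and 67.4 CPM in WT against 39.7 and 61.5 CPM in Zbp1-KO, with 0 of 6 called, 0 at an unadjusted p under 0.05 and a median of −0.27, led by Upk3b, Upk1b and Msln. In Zbp1-KO 1, where the sum was lowest and Cfd and Adipoq were highest, 4 of the 6 mesothelial genes had counts and Muc16 and Lrrn4, named after their values were seen, had 0. The part of attached fat, or of any other cell type, in the levels of the 10 genes was not tested.

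Genes outside the list with the most similar pattern over the 4 libraries were found by the root mean square (RMS) difference, in log2 CPM, between a gene's profile centred on its own mean and the median centred profile of the 7 genes tested and counted in every library. That reference ran from −1.33 in WT 1 and −0.25 in WT 2 to 1.20 in Zbp1-KO 1 and 0.83 in Zbp1-KO 2. As a median of the 7, it took the value of Cfd in WT 1 and Zbp1-KO 1, of Adipoq in WT 2 and of Cidec in Zbp1-KO 2. The nearness of these genes to the reference is therefore built in. Among the 7, Adipoq (RMS 0.237), Cidec (0.308) and Cfd (0.321) lay nearest to it. Retn (1.11) and Lipe (0.974) lay furthest, with Car3 at 0.420 and Fabp4 at 0.706. Of 14258 other genes with a mean of at least 1 CPM, the nearest were Gbp5 (0.229), Tmem56 (0.242), Maob (0.253), Rragb (0.265), Sytl3 (0.266), Amd2 (0.271), 1700001L19Rik (0.272), Bcl2a1d (0.276), Trim6 (0.280) and Cckar (0.295).

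Gbp5, an interferon-induced GTPase, measured 4.34 and 9.84 CPM in WT against 19.1 and 16.8 CPM in Zbp1-KO, and Maob, a monoamine oxidase of the mitochondrial membrane, measured 0.643 and 1.11 CPM in WT against 2.95 and 2.37 CPM in Zbp1-KO. None of the 10 was on the adipocyte or brown fat lists. Those lists hold only 16 and 13 genes, several of them below the 1 CPM that the comparison required, so nothing is read from this absence. None was called by the edgeR quasi-likelihood test (adjusted p = 0.999 for each), and Amd2 and Bcl2a1d have near-identical copies, so their counts are uncertain. Likeness over 4 libraries is a weak description, since any gene higher in both knockouts and lowest in WT 1 has this shape.

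**Figure D5:**
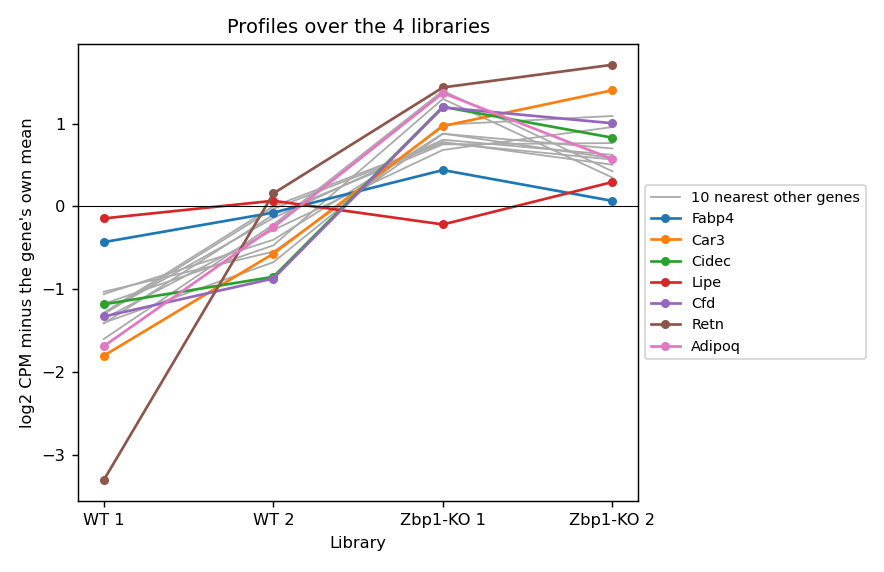
Log2 CPM minus the gene's own mean in each of the 4 libraries for the 7 adipocyte genes counted in every library (coloured) and for the 10 nearest other genes (grey); lines join the values of a gene and imply no order of libraries. Retn drops furthest in WT 1, Lipe stays near 0 throughout, and Adipoq, Cidec and Cfd run within the grey band or close to it.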

How the data were processed

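The authors sequenced polyadenylated kidney RNA as TruSeq read pairs on a HiSeq instrument, trimmed reads with Trimmomatic, aligned them with HISAT2 to mm10 and assigned unique pairs to genes with featureCounts; versions, annotation and strand setting are not given in the sources used here. What was deposited is a raw count per Ensembl gene and library. Of 54532 IDs, 54495 matched GENCODE M21.

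Counts were fitted in edgeR 4.0.16 (R 4.3.3; filterByExpr, minimum count 10 and total 15; TMM; quasi-likelihood F test, two-sided, genotype only; prior count 0.125), with Benjamini-Hochberg adjustment over 14908 genes. SE was obtained as the size of the log2 fold change over the square root of F. The script was tested on simulated data. Profiles used log2 CPM with a prior count of 2. Of each gene list, called genes and otherwise the 3 of highest mean CPM were named, together with all 10 members and Zbp1; further names are genes at 0, genes behind counts of 5 or fewer and genes marked in the text, and 1 gene under this rule is not reported here. Alternatives were 2 other scalings, 2 other filters, no mitochondrially encoded genes, the replicate number as a block, a prior count of 2, the exact, likelihood ratio and robust tests of edgeR, DESeq2 1.42.0, limma-voom (limma 3.58.1) and each library left out. The members and lists were chosen with earlier results of these data known. With groups of 2, p-values measure only the spread between these libraries.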

Additional observations from a re-analysis of the deposited data

How the results depend on the processing

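Of the 10 adipocyte genes, 1 (Cfd) was called, and 2 (Car3, Cfd) were called with the replicate block, the exact and likelihood ratio tests of edgeR, DESeq2 and limma-voom, and 3 (Car3, Cfd, Retn) with all genes of at least 1 count. With 1 library left out the number ran from 0 (without WT 1) to 3 (without WT 2). Without WT 1, Cfd kept a log2 fold change of 1.98 but lost its call (edgeR adjusted p = 0.0798, the highest of a range from 1.73e-16). Over all genes, 2 were called, against 4 (3 higher, 1 lower) without mitochondrially encoded genes, 41 with all genes of at least 1 count, 11 with the replicate block, 14 with the exact test, 26 with the likelihood ratio test, 9 with DESeq2 and 7 with limma-voom, and from 0 (without WT 1) to 37 (without Zbp1-KO 2) with 1 library left out. The replicate numbers did not pair the libraries (correlation of same-numbered deviations across genes 0.00399). The median log2 fold change of the adipocyte genes, 2.17, stayed between 2.11 and 2.19 with all libraries and between 1.78 and 2.44 with 1 left out. That of the other adipocyte genes, 0.23, became 0.74 with a mean of at least 1 CPM and ran from −0.15 to 0.70 with 1 library left out, in which fits the lone library is assumed to vary like the other genotype; 0 of them were called under any alternative. Of 127 values of single adipocyte genes under alternatives, 7 changed by over 1 SD of the replicates, 6 of them with 1 library left out. The cause of these changes was not tested, except that the filter admits more genes of low count. Lep in all libraries, and Plin1 and Ucp1 in WT, lie at or near the limit set by depth.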

Other observations

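Markers of organs that border the kidney were counted in the same libraries. Of 8 adrenal genes, 5 had 0 counts in every library (Cyp11b1, Cyp11b2, Th, Dbh and Chga), 1 was tested and 0 were called by any tool, with 0 at an unadjusted p under 0.05. Star, the cholesterol carrier of steroid-making cells, had 56 and 52 counts in WT against 55 and 94 in Zbp1-KO. Cyp11a1, the side-chain cleavage enzyme, had 24 counts in WT 1 and 0 elsewhere, and Cyp21a1 had 1 count in WT 1. Of 6 genes of exocrine pancreas, 3 had 0 counts in every library, 1 was tested (Cela1, log2 fold change 0.058) and 0 were called by any tool, with 0 at an unadjusted p under 0.05. Ctrb1, the precursor of chymotrypsin, had 1 and 40 counts in WT and 0 in both Zbp1-KO libraries, and Cpa1 had 3 counts in WT 2 alone.

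Of 6 liver genes, 5 were tested and 0 were called by any tool, with 0 at an unadjusted p under 0.05 and a median log2 fold change of −0.25. Ttr, Serpina1a and Alb led the list, and Alb measured 1.53 and 0.941 CPM in WT against 2.58 and 2.80 CPM in Zbp1-KO. Of the 7 skeletal muscle genes, 3 were tested, 0 were called by any tool, while an unadjusted p under 0.05 was reached by 0 higher genes and 1 lower gene. The lower gene was Pvalb, which the distal tubule also makes (log2 fold change −0.70 ± 0.32, SE), and Myh1 and Tnni2 had the next highest levels.

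Of the 7 lymphoid genes, whose summed level was higher in both knockouts, 4 were tested and 0 were called by any tool, with 0 at an unadjusted p under 0.05 and a median of 1.02, led by Cd8a, Cd4 and Cd3d. The B cell genes Cd79a and Ms4a1, not tested, had counts in WT only. The 5 red blood cell genes summed to 2549 and 819 CPM in WT against 818 and 2121 CPM in Zbp1-KO, led by Hba-a1, Hbb-bs and Hba-a2, with 0 of 5 called by any tool, 0 at an unadjusted p under 0.05 and a median of −0.19. Their order over the libraries differed from that of Cfd, with WT 1 highest. Of the 10 kidney genes, 0 were called by any tool, while an unadjusted p under 0.05 was reached by 0 higher and 2 lower genes, Slc22a6 (−0.49 ± 0.22, SE) and Aqp2 (−0.64 ± 0.20, SE), with a median of 0.14. Slc34a1, a phosphate transporter of the proximal tubule, followed Kap in level, at 923 and 1032 CPM in WT against 529 and 995 CPM in Zbp1-KO.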
